A study of Sus scrofa domesticus with 2 samples.

Results

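The genes described here are those of major histocompatibility complex (MHC) antigen presentation in the pig, where the MHC is called the swine leukocyte antigen (SLA) complex. The list named 9 genes, B2M, SLA-1, SLA-2, SLA-3, SLA-DRA, SLA-DQA1, CD74, TAP1 and PSMB8, and a gene was taken where the count tables gave that symbol. The tables listed 22804 genes, and 4 of the 9 symbols were among them, namely B2M, CD74, TAP1 and PSMB8. SLA-1, SLA-2, SLA-3, SLA-DRA and SLA-DQA1 were not analysed here, so the class I heavy chains themselves are not described. The tables did list 1 gene as HLA-DRA, the human symbol of the class II alpha chain, and its values are given under that symbol, apart from the 4 genes.

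Class I molecules, which nearly all nucleated cells carry, are a heavy chain paired with beta-2-microglobulin (B2M), and they display peptides of the cell's own proteins to cytotoxic T cells. PSMB8 is an inducible catalytic subunit of the immunoproteasome, which cuts those peptides, and TAP1 is one chain of the transporter that moves them into the endoplasmic reticulum. Class II molecules display peptides taken up from outside to helper T cells, CD74 is the invariant chain that guards their groove, and interferons raise the genes of both routes in endothelium, where pig class I and class II molecules matter for rejection of grafts.

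The measurements were single-cell RNA-seq counts of primary endothelial cells that had been isolated with collagenase from pig (Sus scrofa domesticus) tissue and grown in serum-containing medium for porcine aortic endothelial cells. The sample labelled Lung_EC came from a lung lobe and the sample labelled Aorta_EC from the aorta next to the lung, taken from slaughterhouse hybrids of Landrace, Large White and Duroc. Neither culture carried a genetic change or an added cytokine by its labels, and the cells were not sorted by a marker. Each organ was 1 culture and 1 library, so no test between samples was possible, the organ and the library cannot be told apart, and every interval below is a 95% interval that covers counting error only.

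The lung library held 5946 cells and 57213236 unique molecular identifiers (UMIs, each a counted transcript molecule) and the aorta library 1185 cells and 46080859 UMIs. Within the limits stated for the study, over 200 and under 5000 genes and under 30% mitochondrial UMIs, 5683 lung cells remained with a median of 9453 UMIs. In the aorta the same limits left 246 cells with a median of 4691 UMIs, because 709 aorta cells had 5000 or more genes. The cell number given with the study for the aorta is above what those limits leave. Aorta values are therefore given within the limits and also for the 955 cells left with no upper limit on genes, whose median was 52080 UMIs. The libraries shared 5 cell barcodes.

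Cells were clustered in each library without the genes described here, and clusters were called endothelial-like, collagen-high (COL1A1 and COL1A2, the chains of type I collagen, both raised) or immune-like from marker lists. In the lung 4928 cells were endothelial-like, 332 collagen-high, 90 immune-like and 333 unnamed. In the aorta 158 cells were endothelial-like, 22 collagen-high and 66 unnamed within the limits, against 633, 139 and 183 with no upper limit. Of the 158, 72 were a cluster with a median of 2379.5 UMIs and 0.213% mitochondrial UMIs. With no upper limit a like cluster of 72 cells, at medians of 2280.5 UMIs and 0.246%, was left unnamed. The aorta endothelial-like levels within the limits thus include cells of a kind that was not named there. The endothelial adhesion gene PECAM1 stood at 1597 UMIs per 1000000 UMIs (CPM) in lung endothelial-like and 141 CPM in lung collagen-high cells, and COL1A1 at 16.9 and 5372 CPM. VWF, a defining endothelial gene, was at 0 in the aorta endothelial-like cells within the limits, and 54 of those 158 cells had under 1% mitochondrial UMIs.

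TAP1 and PSMB9, the gene of another immunoproteasome subunit, lie head to head on chromosome 7 of the assembly Sscrofa11.1, so the bases between them are shown as the stretch from which both are transcribed. TAP1 occupies chr7:25062772-25071989 on the minus strand and PSMB9 chr7:25072133-25077508 on the plus strand, which leaves 143 bases between the annotated genes. PSMB8 is the neighbour of TAP1 at chr7:25058456-25061666, also on the minus strand. CD74 lies at chr2:151402210-151409924 on the minus strand. B2M has 2 entries in the RefSeq annotation, a complete gene at chr1:126837721-126844043 and a partial gene at chr1:126865767-126878501, so its counts may be split with a near-identical copy. The sequences below are RefSeq genomic sequence of Sscrofa11.1, read 5′ to 3′ on the minus strand up to the base before the annotated start (of TAP1 in the case of the shared interval). RSAD2, an antiviral interferon-stimulated gene that was used to split the cells, is shown for contrast. Capitals mark motifs that a search found.
TAP1 and PSMB9, chr7:25071990-25072132: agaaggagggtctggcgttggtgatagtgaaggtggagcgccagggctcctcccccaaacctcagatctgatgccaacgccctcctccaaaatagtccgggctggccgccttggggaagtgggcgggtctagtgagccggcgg
PSMB8, chr7:25061667-25061916: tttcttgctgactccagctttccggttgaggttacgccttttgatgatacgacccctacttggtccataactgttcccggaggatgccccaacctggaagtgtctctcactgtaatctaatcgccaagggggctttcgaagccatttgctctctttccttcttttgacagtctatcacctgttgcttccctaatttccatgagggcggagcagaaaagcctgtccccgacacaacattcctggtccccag
CD74, chr2:151409925-151410174: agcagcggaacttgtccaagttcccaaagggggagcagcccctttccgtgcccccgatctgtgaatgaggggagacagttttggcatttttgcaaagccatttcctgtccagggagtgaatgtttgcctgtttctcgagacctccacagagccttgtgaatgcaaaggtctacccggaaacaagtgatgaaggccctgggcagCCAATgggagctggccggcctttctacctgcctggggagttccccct
RSAD2, chr3:128897810-128898059: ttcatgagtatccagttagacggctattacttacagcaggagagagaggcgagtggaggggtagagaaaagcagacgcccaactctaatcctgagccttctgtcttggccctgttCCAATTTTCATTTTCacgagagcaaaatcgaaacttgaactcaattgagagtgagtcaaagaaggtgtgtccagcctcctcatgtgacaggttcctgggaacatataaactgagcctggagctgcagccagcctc
The search covered both strands for 4 motifs, the interferon-stimulated response element as GAAA, any 2 bases and GAAA again, the gamma-activated site as TTCNNNGAA, CCAAT and TGACG. RSAD2 held the reverse-strand form of the response element, TTTCATTTTC, 121 bases before its start, and a CCAAT box that did not overlap it 131 bases before its start. CD74 held a CCAAT box 43 bases before its start, and no motif was found in the 250 bases before IFIT1, another of the genes used to split the cells, in the PSMB8 window or between TAP1 and PSMB9. Of 19278 annotated genes, 2.98% held the response element, 6.13% the gamma-activated site, 31.9% CCAAT and 19.7% TGACG in the 250 bases before the start. A match is a string of letters, not a shown binding site, and the windows are short. They stop at the annotated start, so a motif lying across or past it was not counted. The IFIT1 window ended in tttcacttt, the reverse-strand form of the response element but for its last base.

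B2M was higher in endothelial-like than in collagen-high cells of both organs. Pooled over the cells of a class, B2M stood at 1593 CPM (1582–1604) in lung endothelial-like cells, while lung collagen-high cells had 1073 CPM (1040–1106). With no upper limit aorta endothelial-like cells had 1573 CPM (1560–1586), while aorta collagen-high cells had 958 CPM (938–979). Within the limits the aorta values were 1279 CPM (1219–1342) and 737 CPM (624–864). Endothelial-like cells were thus above collagen-high cells in each of these 3 sets, and the lung and unlimited aorta endothelial-like levels were the nearest neighbours in the order. B2M was found in nearly every cell: after each lung endothelial-like cell of 5000 or more UMIs was thinned to 5000 UMIs, the cells held a mean of 7.98 B2M UMIs with an SD of 4.08 over 4829 cells.

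TAP1, the transporter chain, was higher in the aorta library. It stood at 56.7 CPM (54.6–58.8) in lung endothelial-like cells and 45.4 CPM (38.8–52.7) in lung collagen-high cells. With no upper limit aorta endothelial-like cells had 85.0 CPM (82.0–88.1), while aorta collagen-high cells had 67.0 CPM (61.7–72.7). Within the limits they were 101 CPM (84.9–120) and 137 CPM (90.8–197), whose intervals overlapped. Both aorta values within the limits rested on few cells: 11 endothelial-like cells held 58 of the 133 TAP1 UMIs of their class, and with the 5% of cells of highest doublet score left out the collagen-high level was 53.7 CPM. The endothelial-like order from low to high was thus the lung, all aorta cells and the aorta cells within the limits, the last pair overlapping.

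PSMB8, the immunoproteasome subunit, had its highest level in the lung endothelium. It stood at 162 CPM (158–165) in lung endothelial-like cells and 94.2 CPM (84.6–104) in lung collagen-high cells. For all aorta cells kept, the endothelial-like level of 113 CPM (110–117) and the collagen-high level of 107 CPM (100–114) overlapped. Within the limits the aorta endothelial-like level of 67.9 CPM (54.5–83.5) was below the collagen-high level of 87.8 CPM (52.1–139), and these overlapped too.

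CD74, the invariant chain, was low in every class. It stood at 14.9 CPM (13.9–16.01) in lung endothelial-like cells and 9.28 CPM (6.47–12.9) in lung collagen-high cells. The aorta endothelial-like levels were 16.7 CPM (15.4–18.1) with no upper limit and 13.0 CPM (7.55–20.8) within the limits, and the collagen-high level with no upper limit was 5.17 CPM (3.77–6.91). Aorta collagen-high cells within the limits held 1 CD74 UMI. The 3 endothelial-like intervals overlapped their neighbours in the order.

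**Figure D1:**
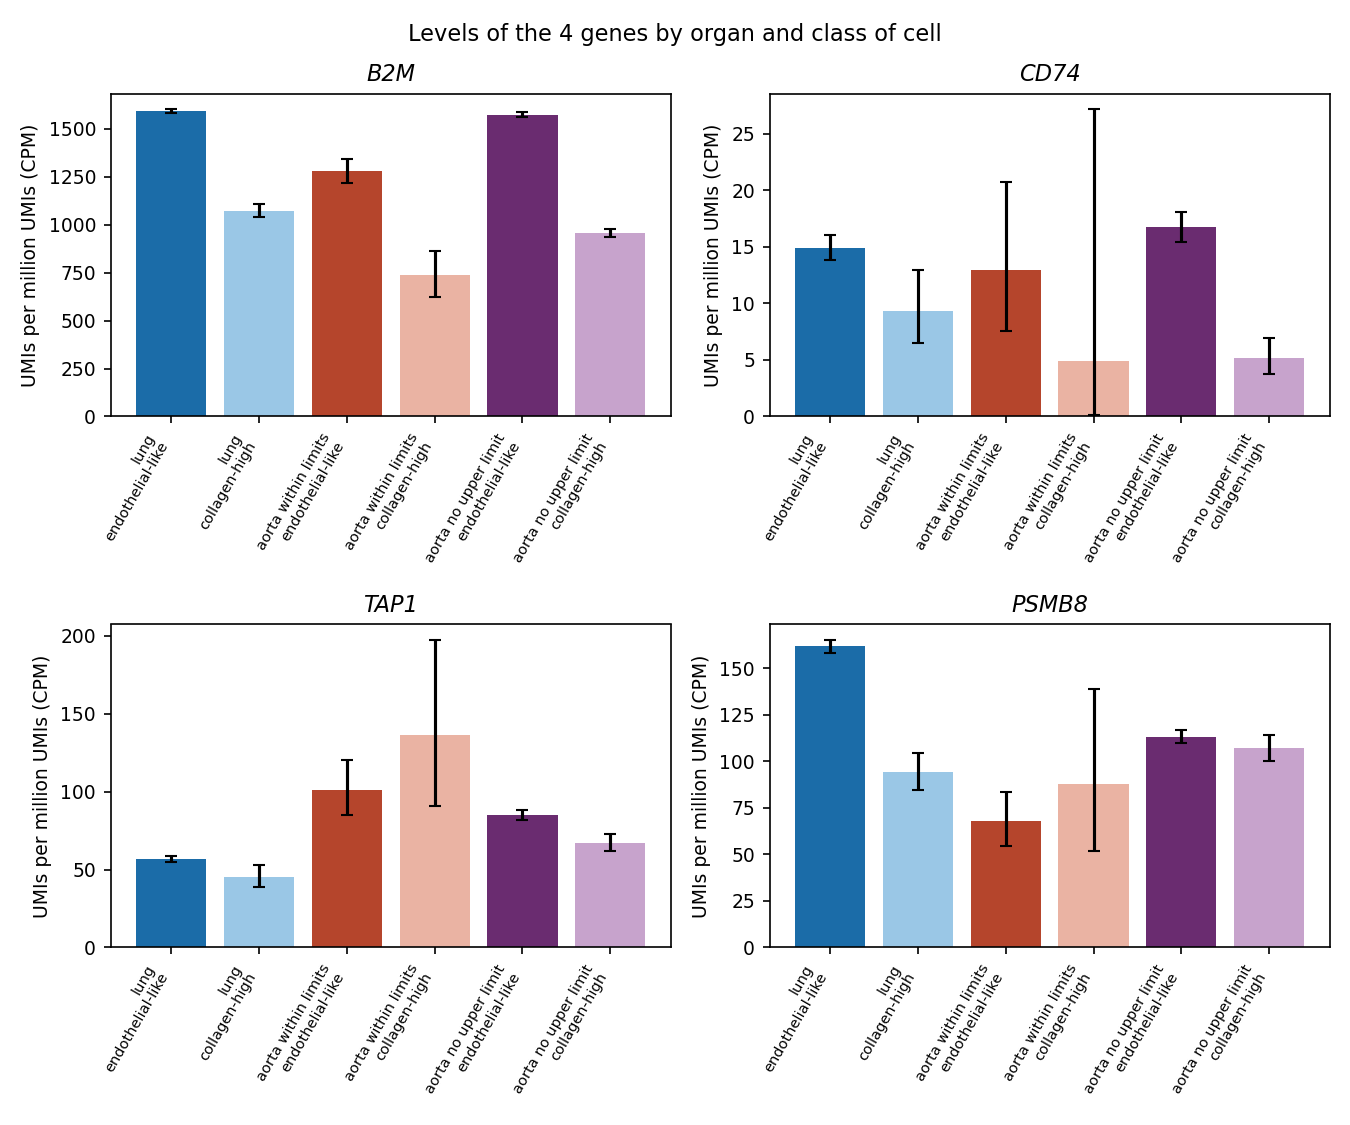
Pooled levels (CPM) of B2M, CD74, TAP1 and PSMB8 in endothelial-like and collagen-high cells of the lung and of the aorta within the limits and with no upper limit on genes. Bars are pooled levels and lines exact Poisson 95% intervals. B2M was lower in collagen-high than in endothelial-like cells of each of the 3 sets, and PSMB8 was highest in lung endothelial-like cells at 162 CPM.

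Next, endothelial-like cells with a UMI of RSAD2, IFIT1 or IFIT2 were set against those with none. These are antiviral genes that interferon raises, and IFIT1 and IFIT2 code for proteins that bind viral RNA. In the lung, 1816 cells held such a UMI and 3112 held none. B2M was 1779 CPM in the cells with and 1476 CPM in the cells without, a ratio of 1.21 (1.19–1.22). TAP1 was 68.8 and 49.0 CPM, a ratio of 1.40 (1.30–1.51). CD74 was 19.0 and 12.3 CPM, a ratio of 1.55 (1.34–1.79). PSMB8 was nearly level at 169 and 157 CPM, a ratio of 1.07 (1.03–1.12). A ratio of 1.5 or more either way was counted as a difference, and by that measure 1 of the 4 genes, CD74, was higher, against 0.782% of the 8826 genes that could be compared, all of which were higher. The median ratio of the 4 genes' pathway partners, 12 class I genes, was 1.08 and the median over all genes was 0.990. The cells with such a UMI were slightly deeper, with a median of 9971 against 9362.5 UMIs. With each cell thinned to 5000 UMIs before the split, the ratios were 1.24 for B2M, 1.5001 for TAP1, 1.71 for CD74 and 1.05 for PSMB8.

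In the aorta with no upper limit PSMB8 was again the least different of the 4 genes, while within the limits this depended on the cells kept. With no upper limit, 531 cells held a UMI of the 3 interferon genes and 102 held none. B2M was 1644 CPM in the cells with and 1100 CPM in the cells without, a ratio of 1.49 (1.45–1.54). TAP1 was 89.7 and 54.3 CPM, a ratio of 1.65 (1.45–1.89). CD74 was 17.9 and 9.05 CPM, a ratio of 1.97 (1.44–2.77). PSMB8 was 114 and 110 CPM, a ratio of 1.03 (0.939–1.13). TAP1 and CD74 passed the ratio of 1.5, against 5.45% of all genes compared, 3.52% higher and 1.93% lower. On cells thinned to 5000 UMIs, 211 against 417, CD74 no longer passed, at 1.34 (0.708–2.49), while TAP1 was 1.83 (1.43–2.33), B2M 1.47 (1.39–1.55) and PSMB8 1.11 (0.883–1.39). Within the limits, with 57 cells against 101, the ratios were 2.16 (1.95–2.38) for B2M, 2.72 (1.86–4.01) for TAP1 and 1.54 (0.990–2.39) for PSMB8. CD74, with 10 and 7 UMIs, was too rare to be compared there, so 3 of the 3 genes compared passed 1.5, against 30.3% of all genes, 14.5% higher and 15.8% lower. Those 57 cells had a median of 7927 UMIs and the 101 cells 4496, and on cells thinned to 5000 UMIs, 27 against 57, the ratios were 3.48 (2.90–4.18) for B2M, 2.44 (1.26–4.78) for TAP1 and 1.62 (0.637–4.01) for PSMB8. Without the cells under 1% mitochondrial UMIs they were 2.16, 2.65 and 2.20.

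The levels of B2M, TAP1 and CD74 were graded with the number of interferon-gene UMIs in a cell. Lung endothelial-like cells with 0, 1, 2 to 4 and 5 or more such UMIs numbered 3112, 1068, 568 and 180. B2M stood at 1476, 1605, 1862 and 2482 CPM in these sets, a ratio of 1.68 (1.63–1.73) between the last and the first. TAP1 stood at 49.0, 54.4, 70.4 and 143 CPM, a ratio of 2.92 (2.56–3.31). CD74 stood at 12.3, 14.0, 20.1 and 43.1 CPM, a ratio of 3.50 (2.75–4.43). PSMB8 stood at 157, 166, 165 and 194.9 CPM, a ratio of 1.24 (1.12–1.37), so that the sets below the last differed little. PSMB9, which shares the interval shown above with TAP1, reached a ratio of 1.74 (1.59–1.90).

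The 4 sets of aorta cells with no upper limit numbered 102, 103, 195 and 233 cells. Their B2M levels were 1100, 1308, 1440 and 1925 CPM, a ratio of 1.75 (1.70–1.80) between the last and the first. TAP1 was 54.3, 54.4, 72.1 and 116 CPM, a ratio of 2.14 (1.87–2.45). CD74 was 9.05, 9.19, 14.9 and 23.4 CPM, a ratio of 2.58 (1.87–3.65). PSMB8 was 110, 110, 110 and 118 CPM, a ratio of 1.07 (0.968–1.18). Thus B2M differed from the first step on, TAP1 and CD74 from 2 UMIs on, and PSMB8 at no step beyond its counting interval. On thinned aorta cells, where 36 cells held 5 or more such UMIs, the ratios at that step were 2.34 for B2M, 4.26 for TAP1, 3.31 for CD74 and 1.73 (1.16–2.50) for PSMB8.

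**Figure D2:**
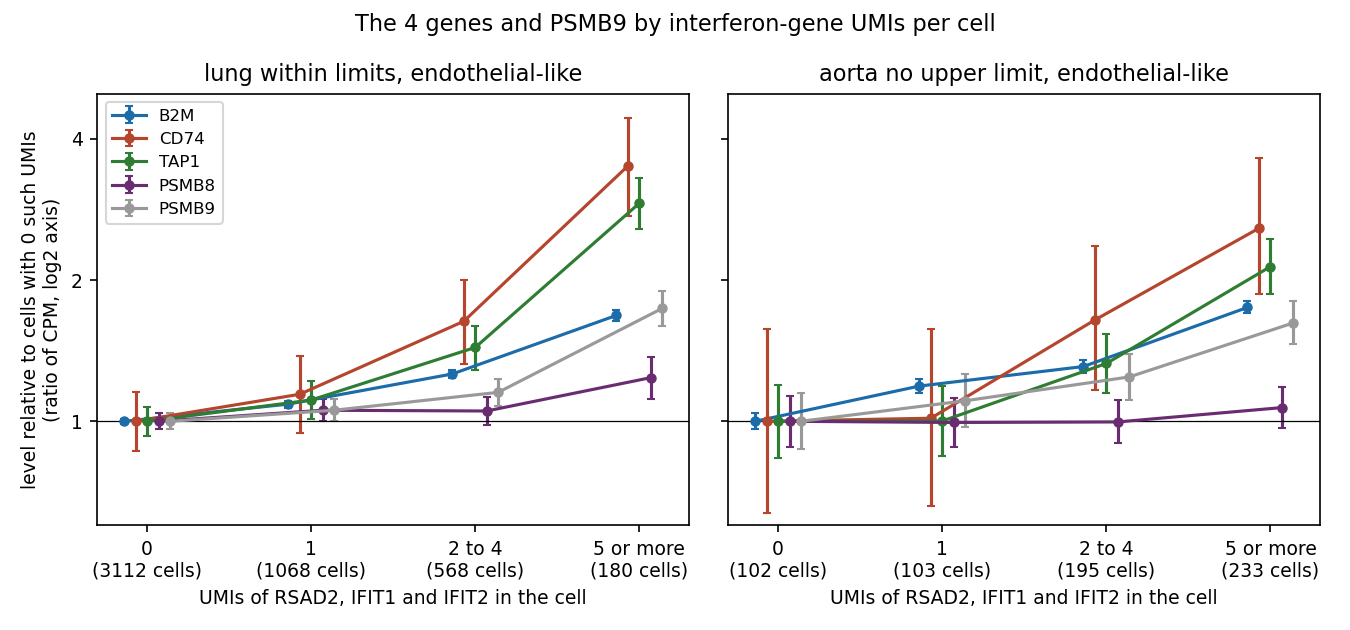
Ratio of the level (CPM) of the 4 genes and PSMB9 in endothelial-like cells with 0, 1, 2 to 4 or 5 or more UMIs of RSAD2, IFIT1 and IFIT2 to the level in cells with 0 (log2 axis), for the lung and for the aorta with no upper limit, with exact 95% intervals. CD74 and TAP1 lie above B2M at the last step, and PSMB8 ends at 1.24 in the lung and 1.07 in the aorta.

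The pathway genes around the 4 were compared in the same way. Of the 12 class I pathway genes compared in the lung, 0 passed 1.5 in either direction, with PSMB9 at 1.16 (1.11–1.21) and TAPBP, the tapasin that loads peptides, at 1.12 (1.06–1.19). Of 8 class II pathway genes 0 passed, with SLA-DQB1, a class II beta chain, at 1.47 (1.19–1.82). Of 15 interferon signalling genes only IRF7, a transcription factor of the interferon response, passed, at 2.75 (2.43–3.11). By contrast 20 of 23 other interferon-stimulated genes were higher, with the chemokine CXCL10 at 22.5, the antiviral MX2 at 4.74 and the RNA sensor DDX58 at 4.62. CXCL10 lay under 5 CPM in the cells without an interferon-gene UMI, so it could be compared only through the cells with one. In the aorta with no upper limit, 1 of 11 class I pathway genes was higher, ERAP2, which trims peptides, at 1.58 (1.03–2.51). The class II list had 3 of 8 higher there, SLA-DMA, part of the peptide exchanger, at 2.23 (1.32–4.05), SLA-DQB1 at 1.67 (1.15–2.49) and RFX5, a class II promoter factor, at 1.57 (1.14–2.21), and the interferon-stimulated list had 22 of 23 higher.

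Collagen-high cells showed the split too. In the lung, with 79 cells against 253, PSMB8 was 137 CPM in the cells with an interferon-gene UMI and 79.0 CPM in those without, a ratio of 1.73 (1.39–2.16). B2M was 1355 and 973 CPM, a ratio of 1.39 (1.30–1.49). TAP1 had a ratio of 1.41 (1.01–1.96) and CD74, on 12 and 23 UMIs, 1.47 (0.668–3.09). Of the 4 genes 1 passed 1.5, against 13.9% of all genes, 7.65% higher and 6.29% lower. In the aorta with no upper limit, with 64 cells against 75, B2M was 1181 and 760 CPM, a ratio of 1.55 (1.49–1.62), TAP1 89.5 and 47.1 CPM, a ratio of 1.90 (1.60–2.26), and PSMB8 136 and 81.3 CPM, a ratio of 1.67 (1.47–1.91). B2M, TAP1 and PSMB8 passed 1.5, against 4.73% of all genes, 2.87% higher and 1.86% lower. CD74 had a ratio of 1.85 (0.979–3.61) on 28 and 17 UMIs, at 6.83 and 3.69 CPM. CD74 reached the mean of 5 CPM only through the cells with an interferon-gene UMI, and its interval held 1, so it was not counted. PSMB8 thus had ratios of 1.73 and 1.67 in collagen-high cells beside 1.07 and 1.03 in endothelial-like cells, and these differences between classes were not tested. The class I pathway list had 5 of 11 genes higher in lung collagen-high cells, with ERAP2 at 3.08, TAPBPL, a tapasin-related protein, at 2.03 and PSMB9 at 1.95. In the aorta collagen-high cells it had 4 of 11 higher, with PSMB9 at 2.07, ERAP2 at 1.89 and PSME2, a proteasome activator subunit, at 1.64.

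The make-up of the proteasome transcripts was described by the share of PSMB8, PSMB9 and PSMB10 UMIs among those of these 3 immunoproteasome genes and of the constitutive subunit genes PSMB6 and PSMB7. PSMB5, the other constitutive gene listed, was not found by that symbol and is missing from the share. The share is therefore read only between sets of cells, not as the part of the proteasome that is immunoproteasome. In lung endothelial-like cells the share was 39.9% (39.2–40.5%) with and 36.3% (35.8–36.8%) without an interferon-gene UMI. In lung collagen-high cells it was 30.6% (27.7–33.6%) and 20.2% (18.7–21.8%). It was 34.04% (33.5–34.6%) and 30.3% (28.8–31.7%) in aorta endothelial-like cells with no upper limit, and 29.0% (27.6–30.4%) and 19.3% (18.0–20.6%) in collagen-high cells. The cells with interferon-gene UMIs had the larger share in all 4 sets, and the lung endothelial-like cells without such UMIs, at 36.3%, had a larger share than the lung collagen-high cells with them, at 30.6%. PSMB6 and PSMB7 had ratios of 0.953 (0.928–0.979) and 0.927 (0.893–0.962) across the lung endothelial-like split.

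**Figure D3:**
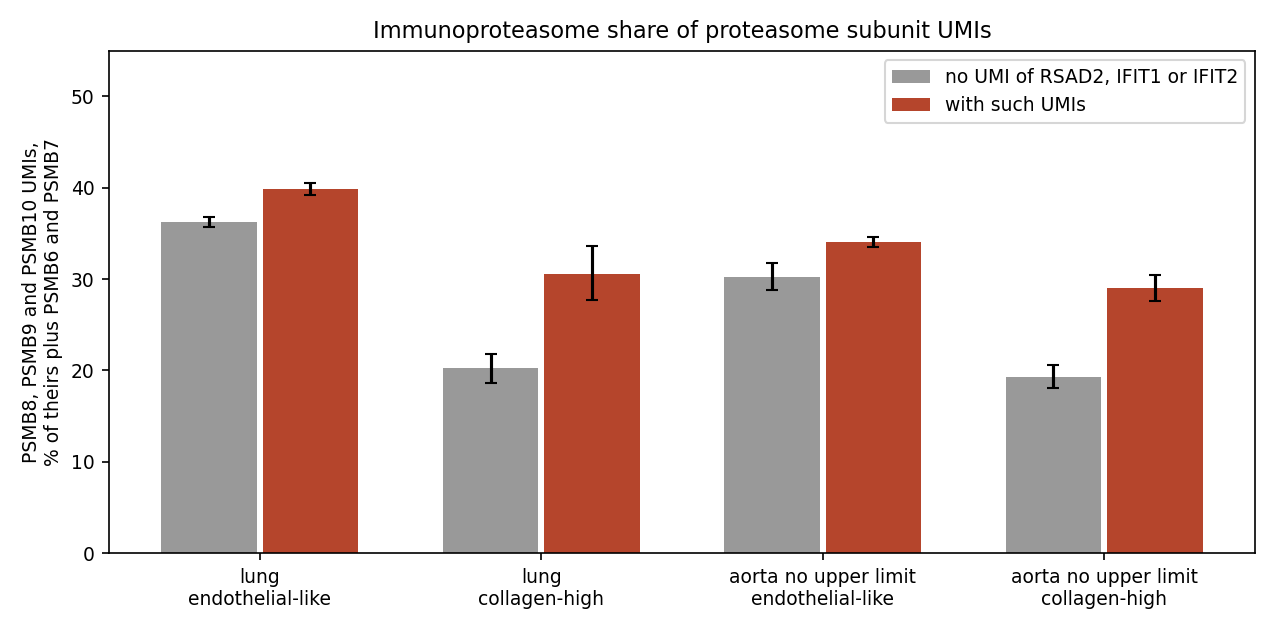
Share, in percent, of immunoproteasome UMIs (PSMB8, PSMB9 and PSMB10) among these and PSMB6 and PSMB7 UMIs in endothelial-like and collagen-high cells with and without a UMI of RSAD2, IFIT1 or IFIT2, with exact binomial 95% intervals. In lung collagen-high cells the share was 30.6% with and 20.2% without such a UMI, and in lung endothelial-like cells 39.9% and 36.3%.

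Among the 7 lung endothelial-like clusters, B2M ranged from 1372 CPM in the cluster led by the mitotic genes CDC20, CCNB1 and BUB1B to 2627 CPM in the cluster led by CXCL10, RSAD2 and CCL5. TAP1 ranged from 42.7 CPM in the cluster led by MSH6 and MCM4, genes of DNA repair and replication, to 135 CPM in the CXCL10-led cluster. CD74 ranged from 10.8 CPM in the cluster led by UBE2C, TOP2A and CENPF to 53.2 CPM in the CXCL10-led cluster. PSMB8 ranged from 134 CPM in the cluster led by SLPI, CRYAB and CFD to 266 CPM in the CXCL10-led cluster. All 4 genes were thus highest in the same cluster of 206 cells, while the SLPI-led cluster of 785 cells had the next highest B2M, at 2010 CPM, with the lowest PSMB8. Against the other 4722 lung endothelial-like cells, the CXCL10-led cluster had ratios of 1.69 (1.65–1.74) for B2M, 2.52 (2.22–2.86) for TAP1, 3.99 (3.22–4.90) for CD74 and 1.69 (1.55–1.85) for PSMB8. The clusters were defined by other genes of the same cells, so these ratios are descriptions.

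With no upper limit the aorta also had a cluster led by CXCL10, with CCL5 and SLPI, of 242 cells against 391 other endothelial-like cells. B2M stood at 1938 CPM there and 1365 CPM in the others, a ratio of 1.42 (1.40–1.44). TAP1 had a ratio of 1.55 (1.44–1.67) and CD74 of 3.41 (2.87–4.07). PSMB8 was the exception at 92.8 against 125 CPM, a ratio of 0.743 (0.693–0.795), and this cluster had the lowest PSMB8 level of the 4 aorta endothelial-like clusters.

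The split by interferon-gene UMIs was repeated inside single clusters. In the lung B2M was higher in the cells with such a UMI in 7 of 7 endothelial-like clusters, with ratios of 1.04 to 1.14, and 5 of the intervals lay above 1. TAP1 was higher in 7 of 7, with ratios of 1.12 to 2.46 and 2 intervals above 1. CD74 was above 1 in 7 of 7 with 1 interval above 1, and PSMB8 in 4 of 7, with ratios of 0.946 to 1.14. In the 3 aorta clusters that had at least 20 cells on each side, B2M had ratios of 1.30 to 1.38 and TAP1 of 1.37 to 1.82, with all 6 intervals above 1. There CD74 was above 1 in 2 of 3, with ratios of 0.811 to 2.33 and 1 interval above 1, and PSMB8 in 2 of 3, with ratios of 0.999 to 1.37 and 1 interval above 1. When the CXCL10-led cluster was left out, the pooled lung ratios were 1.15 for B2M, 1.251 for TAP1, 1.22 for CD74 and 1.02 for PSMB8, so 0 of the 4 genes passed 1.5. The aorta ratios without its CXCL10-led cluster were 1.41 for B2M, 1.41 for TAP1, 1.10 for CD74 and 1.07 for PSMB8, and again 0 passed. The share of all genes passing was not computed without these clusters, so these counts are not a result about the 4 genes. The 2 lung collagen-high clusters were nearer to each other, with B2M at 1031 CPM in 242 cells led by ACTG2, COL6A1 and ACTA2 and at 1193 CPM in 90 cells led by WT1, IGFBP5 and COL3A1, and PSMB8 at 91.0 and 103 CPM.

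**Figure D4:**
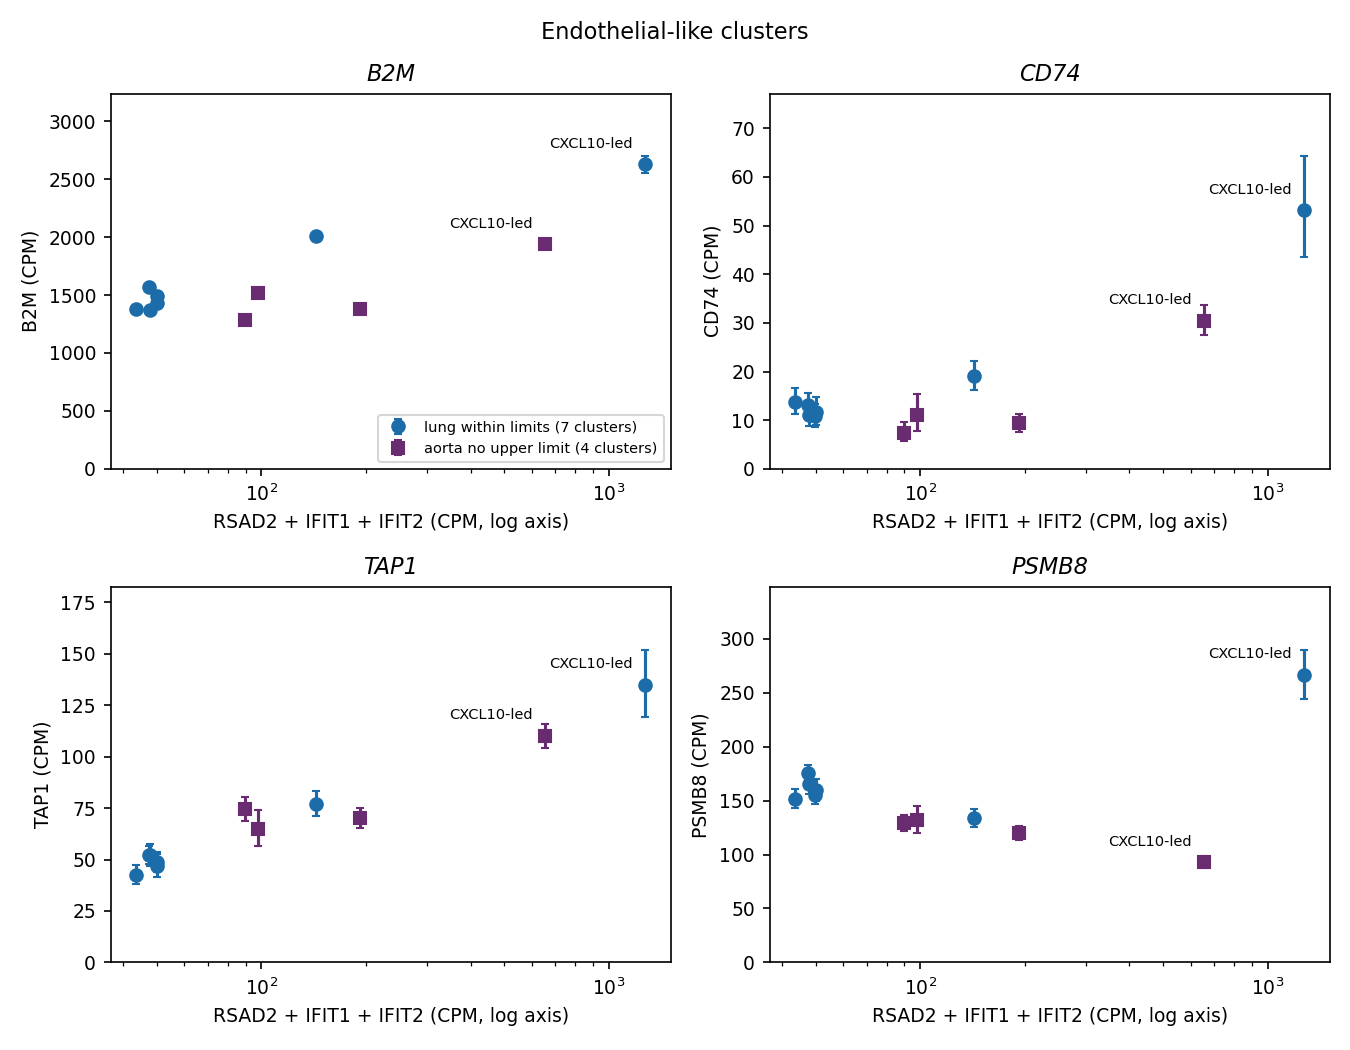
Level (CPM) of B2M, CD74, TAP1 and PSMB8 in each of 7 lung and 4 aorta (no upper limit) endothelial-like clusters against the summed level of RSAD2, IFIT1 and IFIT2 in that cluster (CPM, log axis), with exact Poisson 95% intervals. The CXCL10-led cluster is highest for all 4 genes in the lung, at 266 CPM for PSMB8, and lowest for PSMB8 in the aorta, at 92.8 CPM.

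The genes most like each of the 4 in their levels across the lung clusters were found by the Pearson correlation of log2(CPM + 10) over the 11 clusters of 50 or more cells, among 4226 genes. The clusters come from 1 library, so the correlations are descriptions. For TAP1 they were UBE2L6 (r = 0.971), ZNFX1 (0.968) and PARP14 (0.966). For CD74 they were PML (0.965), TNFSF10 (0.949) and N4BP1 (0.939). For B2M they were an unnamed gene, ENSSSCG00000016262 (0.9399), PLAC8 (0.934) and SAMD9 (0.932). PSMB8, added after its values were seen, was most like PSMB9 (0.982), PSME2 (0.970) and PSMB10 (0.939). Between the 4 genes the correlations ran from 0.206 for CD74 and PSMB8 to 0.725 for B2M and TAP1.

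HLA-DRA, the class II alpha chain, was rare and lay in few cells. In lung endothelial-like cells it had 41 UMIs in 30 of 4928 cells, a share of 0.609% (0.411–0.868%), at a median of 9581 UMIs per cell. In lung collagen-high cells, which as a class are expected to lack it, it had 1 UMI in 332 cells, a share of 0.301% (0.00763–1.67%), at a median of 10687 UMIs. On cells thinned to 5000 UMIs the shares were 0.373% (0.221–0.588%) of 4829 endothelial-like cells and 0 of 311 collagen-high cells, an interval that reaches 1.18%. The lung share was thus not told apart from that of the collagen-high cells at this depth. In the aorta with no upper limit HLA-DRA had 283 UMIs in 54 of 633 endothelial-like cells, a share of 8.53% (6.47–10.98%), and 1 UMI in 139 collagen-high cells. After thinning, the aorta shares were 2.39% (1.34–3.91%) of 628 cells and 0 of 138 cells, an interval that reaches 2.64%. Within the limits the aorta had 36 UMIs in 6 of 158 endothelial-like cells, a share of 3.80% (1.41–8.08%).

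The HLA-DRA UMIs were concentrated. With no upper limit 1 aorta cell held 77 of the 283 UMIs and the 10 highest cells held 71.4% of them, whereas the highest lung endothelial-like cell held 4. CD74 was more widely spread, with 751 UMIs in 626 lung endothelial-like cells and 588 UMIs in 258 aorta endothelial-like cells. Most HLA-DRA UMIs lay in cells with interferon-gene UMIs. In the lung these cells held 31 UMIs against 10 in the cells without, a ratio of 4.91 (2.34–11.2), and the 180 cells with 5 or more interferon-gene UMIs held 21 of the 41. In the aorta they held 281 UMIs against 2 with no upper limit, a ratio of 21.3 (5.85–177), and 36 against 0 within the limits. On thinned cells the ratio was 4.34 (1.59–12.4) in the lung and 7.25 (2.85–21.8) in the aorta with no upper limit. The CXCL10-led clusters held 20 of the 41 lung UMIs and 252 of the 283 aorta UMIs.

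Immune cells are a usual source of class II transcripts, and their markers were measured beside these counts. The 15 immune markers summed to 8.10 CPM in lung endothelial-like cells, with CD3E and MS4A1 at 0, and to 6.48 CPM in aorta endothelial-like cells with no upper limit, with 9 of the 15 at 0, PTPRC among them. In the 90 lung immune-like cells they summed to 1572 CPM, HLA-DRA had 9 UMIs and CD74 26 UMIs. The number of HLA-DRA UMIs per immune marker UMI was 0.100 (0.0710–0.139) in lung endothelial-like and 0.00612 (0.00279–0.0117) in immune-like cells, and that of CD74 was 1.84 (1.63–2.08) and 0.0177 (0.0115–0.0260). Both ratios were lower in the immune-like cells, a class named by the same immune markers that form the divisor. The pooled levels went the other way. HLA-DRA stood at 9.63 CPM in immune-like cells, on 9 UMIs in 3 cells, and at 0.814 CPM in lung endothelial-like cells. CD74 stood at 27.8 and 14.9 CPM. The ratios thus do not show that immune-like cells held less of either transcript. In lung endothelial-like cells without any immune marker UMI, CD74 was 19.0 CPM with and 12.3 CPM without interferon-gene UMIs, and HLA-DRA had 30 and 9 UMIs. In such aorta cells with no upper limit, HLA-DRA had 131 UMIs in 384 cells with interferon-gene UMIs and 2 in 87 cells without. Its level in those 384 cells was 6.02 CPM (5.04–7.15). The 147 aorta cells with both an immune marker and an interferon-gene UMI held 150, a higher level of 17.0 CPM (14.4–20.0). The source of these UMIs was not tested.

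Class I genes were also set against the class II UMIs of a cell, counted over HLA-DRA and CD74. In the lung 4290 endothelial-like cells held 0, 543 held 1 and 95 held 2 or more. B2M was 1556, 1713 and 2343 CPM in these sets, a ratio of 1.51 (1.45–1.56) between the last and the first. TAP1 was 55.4, 58.5 and 94.8 CPM, a ratio of 1.71 (1.41–2.07), and PSMB8 160, 162 and 217 CPM, a ratio of 1.35 (1.19–1.53). SLA-DQB1 had a ratio of 4.74 (3.20–6.84) and RSAD2 of 8.61 (7.43–9.95). In the aorta with no upper limit, with 364, 149 and 120 cells, the ratios were 1.40 for B2M, 1.76 for TAP1, 0.989 for PSMB8, 4.72 for SLA-DQB1 and 7.85 for RSAD2. Cells with 2 or more class II UMIs were the deepest in the lung, with a median of 11598 against 9449.5 UMIs for cells with none, and on thinned lung cells, with 28 such cells, the ratios were 1.92 (1.74–2.11) for B2M, 1.43 (0.711–2.57) for TAP1 and 1.68 (1.19–2.32) for PSMB8. On thinned aorta cells, with 10 such cells, they were 2.25 (1.92–2.62), 6.42 (4.07–9.72) and 0.745 (0.202–1.93).

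**Figure D5:**
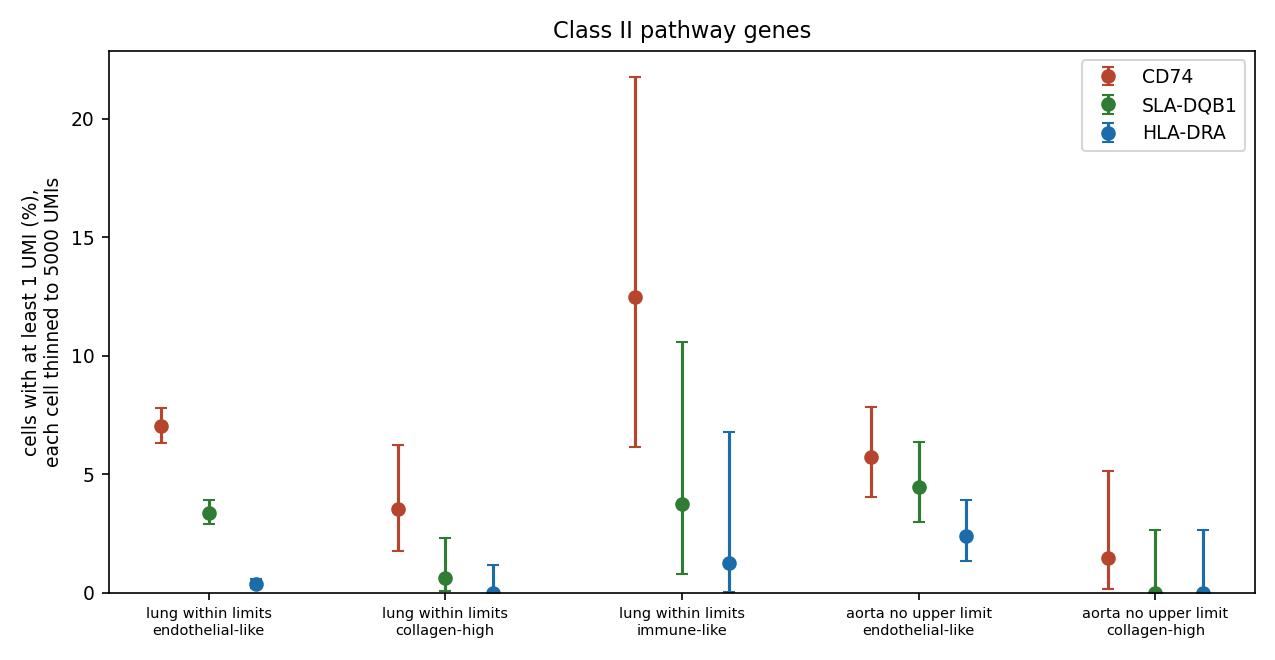
Share of cells, in percent, with at least 1 UMI of CD74, SLA-DQB1 or HLA-DRA after each cell was thinned to 5000 UMIs, by library and class, with exact binomial 95% intervals. HLA-DRA was found in 0.373% of lung and 2.39% of aorta endothelial-like cells and in 0 collagen-high cells of either organ.

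Between the classes, the 4 genes were compared in collagen-high against endothelial-like cells, first in the lung. PSMB8 stood at 0.582 (0.522–0.647) of its endothelial-like level, CD74 at 0.623 (0.431–0.874), B2M at 0.673 (0.652–0.695) and TAP1 at 0.8003 (0.682–0.934). PSMB8 and CD74 passed the ratio of 1.5, so 2 of the 4 genes were lower by that measure, against 30.9% of all genes, 14% higher and 16.9% lower. In the aorta with no upper limit, B2M stood at 0.609 (0.595–0.624), CD74 at 0.309 (0.223–0.419), TAP1 at 0.789 (0.720–0.862) and PSMB8 at 0.945 (0.879–1.02). There B2M and CD74 were the 2 that passed, against 37.8% of all genes, 16.7% higher and 21% lower. Within the limits, on 22 collagen-high cells, B2M was lower at 0.576 (0.484–0.681) and was the 1 gene of 3 to pass, against 49.1% of all genes, 20.4% higher and 28.7% lower. TAP1 at 1.35 (0.863–2.04) and PSMB8 at 1.29 (0.734–2.17) had intervals that held 1. That TAP1 direction turned without the 5% of cells of highest doublet score, which left 21 collagen-high cells, at 0.515, and it turned likewise under 10% mitochondrial UMIs, at 0.498. The cells differed in a large part of all genes, so these counts do not set the 4 genes apart.

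Among the pathway genes 6 of 12 class I genes were lower in lung collagen-high cells, with a list median of 0.684 beside 1.00 over all genes. PSMB9 stood at 0.441 (0.390–0.497), TAPBP at 0.471 (0.401–0.549) and TAPBPL at 0.478 (0.344–0.648) of the endothelial-like level. Of the 11 compared in the aorta with no upper limit 5 were lower, with TAPBPL at 0.383, TAPBP at 0.461 and PSMB10 at 0.504. IFI30, a reductase that unfolds proteins for class II loading, went the other way, at 3.25 (2.90–3.65) in the lung and 4.32 (3.99–4.68) in the aorta. CTSS, a protease that degrades the invariant chain, stood at 0.225 (0.155–0.315) and 0.185 (0.149–0.227), and the co-stimulation genes split, with CD40 at 1.66 and CD86 at 0.197 in the lung. The interferon-stimulated genes were lower in collagen-high cells for 13 of 22 compared in the lung and 16 of 22 in the aorta with no upper limit.

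Between the organs, PSMB8 had the highest and TAP1 the lowest ratio of lung to aorta, and the sizes depended on which aorta cells were used. Against the aorta endothelial-like cells within the limits, the lung level of PSMB8 was 2.38 times (1.94–2.97) as high, that of TAP1 0.559 (0.470–0.670) times, that of B2M 1.245 (1.19–1.31) times and that of CD74 1.15 (0.713–1.99) times. PSMB8 and TAP1 passed 1.5 in opposite directions, against 31.9% of all genes, 14.2% higher and 17.7% lower. Against all 633 aorta endothelial-like cells the ratios were 1.43 (1.37–1.48) for PSMB8, 0.667 (0.633–0.702) for TAP1, 1.01 (1.00–1.02) for B2M and 0.892 (0.7998–0.995) for CD74, and 0 of the 4 passed, TAP1 lying just short of it, against 14.3% of all genes, 3.98% higher and 10.3% lower. The directions of PSMB8 and TAP1 were the same in both sets. RSAD2, IFIT1 and IFIT2 were lower in the lung than in these aorta cells, at 0.279, 0.374 and 0.340 of the aorta level. Among cells without a UMI of these 3 genes the ratios within the limits were 0.852 for TAP1, 1.74 for B2M and 2.87 for PSMB8. With the upper limit lifted in both libraries, which left 3129 such lung and 102 such aorta cells, they were 0.908, 1.34 and 1.42. Lung cells without such a UMI had a median of 9362.5 UMIs within the limits, and these 102 aorta cells 50770.5 UMIs. Shallow cells miss such UMIs more often, so the cells are not matched for interferon-gene level. This comparison was not repeated on thinned cells. A median cell held 9581 UMIs in the lung and 54960 in the aorta with no upper limit, and on cells thinned to 5000 UMIs the PSMB8 ratio to those aorta cells was 1.48 and the TAP1 ratio 0.632. Within the limits PSMB6 and PSMB7 differed between the organs as well, at 1.84 and 1.79, and with no upper limit at 1.24 and 1.11.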

How the data were processed

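The authors deposited gene-by-cell matrices of UMI counts, not normalized, for the lung and the aorta culture, made with Cell Ranger 3.0.2 on Sscrofa11.1 per the submitters' processing notes and the study's methods. Of 22804 genes, 14983 were named by the files, 1051 by a table of gene IDs, and 6770 kept their ID. Cells were kept with over 200 and under 5000 genes and with mitochondrial UMIs (12 genes) under 30%. Each library was clustered apart in Seurat 5.3.0 (R 4.3.3, 20 principal components, resolution 1). From the 2000 variable genes, the 9 listed genes, HLA-DRA, HLA-DOB and the markers were left out. Collagen-high clusters had COL1A1 and COL1A2 raised, at no less than 20 CPM and 2 times the rest, immune-like clusters had 3 or more immune markers raised, and endothelial-like clusters held 5 or more endothelial markers and fewer than 2 raised smooth muscle markers; these limits were set after marker levels were seen. The other cells stayed unnamed. Scrublet in scanpy 1.11.5 marked 2 lung cells (0.0350%), too few to have worked, and 9 aorta cells (0.942%), and no cell was removed as a doublet, so doublets may remain.

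UMIs were pooled over the cells of a class and given per 1000000 UMIs (CPM) with exact Poisson 95% intervals, ratios with exact conditional binomial intervals and shares of cells with Clopper-Pearson intervals (Python 3.11.15, scipy 1.17.1). With 1 library per organ there was no replicate and no test. Cells are not replicates, and intervals cover counting error only. A gene was compared at a mean of 5 CPM or more and 20 or more UMIs, and a ratio of 1.5 either way was counted. Counts were of transcript molecules and were not scaled by gene length, so levels are not compared between genes. Thinning drew 5000 UMIs from each cell without replacement and left out shallower cells. The ratios, their intervals and the thinning were tested on simulated counts that held counting error only and ratios larger than 1.5. Clustering, the naming of classes and further spread between cells were not part of that test.

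The genes, the marker and pathway lists and the split were chosen with earlier results of these data known. Pathway genes are named as the 3 with the largest ratio each way past 1.5, clusters by the 3 leading genes at 100 CPM or more, and likeness by the 3 highest correlations; PSMB8 in the likeness, genes given at ratios under 1.5, and the CXCL10-led clusters were chosen after their values were seen. The planned share of cells with SLA-DRA was taken on the gene listed as HLA-DRA, and SLA-DOB was read as HLA-DOB. Genome sequence and positions came from RefSeq of the same assembly. The alternatives changed the limits on cells, the clustering, the doublets, the scale, the depth, the ratio counted and the split.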

Additional observations from a re-analysis of the deposited data

Results flagged for a closer look

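PSMB8, the immunoproteasome subunit gene, went in opposite directions in the CXCL10-led endothelial-like clusters of the 2 organs. Its ratio to the other endothelial-like clusters was 1.69 (1.55–1.85) in the lung, at 266 against 158 CPM, and 0.743 (0.693–0.795) in the aorta with no upper limit on genes, at 92.8 against 125 CPM. The difference between the organs was not tested, each organ was 1 library, and the clusters were paired by CXCL10 after their values were seen. The aorta cluster was also led by SLPI, CFD and TIMP3, which led another lung cluster, of 785 cells, and that cluster had the lowest PSMB8 level of the lung endothelial-like clusters, at 134 CPM. PSMB9 had ratios of 2.15 (1.98–2.32) and 0.986 (0.925–1.05), PSMB10 of 1.49 (1.32–1.68) and 0.895 (0.820–0.976), and PSME2 of 1.67 (1.53–1.83) and 0.871 (0.820–0.926) in the lung and the aorta. The interferon-stimulated gene ISG15 had ratios of 15.8 (15.4–16.2) and 2.43 (2.38–2.49) in the same comparison, while B2M, TAP1 and CD74 were above 1 in both organs.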

How the results depend on the processing

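Of 118 alternatives to the counts and shares, 90 stayed within 1.5 times the value given or within its interval, and 28 moved. These labels carry no direction, so a reversal could not show among them. Among the 90, 12 counted the levels of the 4 genes by class that stayed inside their intervals. Such a count could stay within 1.5 times while single levels left theirs. With no upper limit, for example, aorta endothelial-like B2M was 1573 CPM, outside the interval of 1219–1342 CPM within the limits. No paired analysis was possible because each organ was 1 library, and no replicate could be left out. The share of all genes passing was not computed anew for each alternative. Across the comparisons above that share ran from 0.782% to 49.1%, so a move in the counts below is not a result about the 4 genes. For the lung split by interferon-gene UMIs, where 1 of 4 genes passed 1.5, the number was 2 on cells thinned to 5000 UMIs, 2 at the smaller ratio tried, 0 at a ratio of 2, 2 when split at 2 UMIs and 2 when split by RSAD2 alone. It was 0 without the CXCL10-led cluster and 0 by the median over single clusters. For the aorta split, where 3 of 3 passed within the limits, it was 1 (TAP1, with CD74 lost) with no upper limit on genes and thinning, and 0 with no upper limit and without the CXCL10-led cluster. For lung collagen-high against endothelial-like cells, where 2 passed, it was 0 at a ratio of 2. For the aorta, where 1 passed, it was 2 with no upper limit, under 10% mitochondrial UMIs, without cells under 1% mitochondrial UMIs, with 30 principal components, without the top 5% of Scrublet scores, by the mean of single cells and on thinned cells, 3 at the smaller ratio tried and 0 at a ratio of 2. For lung against aorta endothelial-like cells, where 2 passed, it was 0 with no upper limit, 1 by the mean of single cells, 1 at a ratio of 2, 1 with no upper limit and thinning, and 0 with no upper limit and only cells without interferon-gene UMIs. The HLA-DRA share of lung endothelial-like cells was 0.373% on thinned cells beside 0.609%, and that of the aorta 8.53% with no upper limit beside 3.80%. Of the 3 class I genes set against class II UMIs in the aorta, 1 passed with no upper limit, 2 on thinned cells and 3 within the limits, where 5 cells held 2 or more such UMIs. The cause of these moves was not tested, except that a larger or smaller ratio counts fewer or more genes by construction. The alternatives on the CXCL10-led clusters, on single clusters, on combined limits and thinning, on cells without interferon-gene UMIs and on class II UMIs were chosen after seeing the data. Rare transcripts are limited by depth: 3 UMIs, the floor used, are 0.0595 CPM in lung and 2.29 CPM in aorta endothelial-like cells within the limits.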

Other observations

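The 90 immune-like lung cells, led by LYZ, GPNMB and FCER1G, held B2M at 1521 CPM (1443–1602), TAP1 at 29.9 CPM (19.9–43.3) and PSMB8 at 66.3 CPM (50.8–85.0), so that TAP1 and PSMB8 were below their lung endothelial-like levels. Their CD74 level was 27.8 CPM (18.2–40.7), and CIITA, the master regulator of class II genes, had 0 UMIs there, an interval that reaches 3.95 CPM. PECAM1 stood at 1119 CPM in the same cells, and the part of doublets or free RNA in these values was not tested. In the aorta within the limits, 72 endothelial-like cells with a median of 0.213% mitochondrial UMIs had B2M at 1811 CPM (1635–2001), TAP1 at 28.1 CPM on 6 UMIs and PSMB8 at 154 CPM. The 66 unnamed aorta cells, led by ACTG2, FAM98C and ACTA2 at a median of 0.0987% mitochondrial UMIs, had B2M at 237 CPM (185–298).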
